A study of Mus musculus with 6 samples.

Results

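The nuclear genes for subunits of respiratory complex I were followed in skeletal muscle that lacks the transcription factor TFEB. The list held 35 Ndufa, Ndufb, Ndufc, Ndufs and Ndufv genes, and a gene was measured where a probe set of the array carried its symbol alone. By that rule 32 of the 35 genes were measured, out of 12393 genes measured in all, and 22626 probe sets were tested. The other genes of the list, Ndufb4, Ndufs6 and Ndufa11, were read only by probe sets that name several genes and have no value here. Each of 19 members had more than 1 probe set, which gave 66 probe sets for the 32 members, and the brightest by its mean over the 6 arrays stands for the gene unless another is named. The list was drawn up by name, with earlier results of these data known.

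Total RNA from the muscle of 1-month-old mice of the C57BL/6 strain was hybridised to Affymetrix arrays, with 1 array for each of 3 wild-type (WT) mice and 3 TFEB KO mice. The knockout joins a floxed Tcfeb allele, the gene for TFEB, to Cre recombinase driven by MLC1f, a myosin light chain promoter of muscle fibers, so that cells other than fibers keep the gene. The labels give no agent or diet for any of the mice, and do not say which muscle was taken. Values are log2 RMA values, in which a difference of 1 is a doubling, and differences are TFEB KO minus WT throughout.

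Complex I is the entry point of the mitochondrial respiratory chain. Its matrix arm takes electrons from NADH at a flavin, passes them along iron-sulfur clusters to ubiquinone, and its membrane arm pumps protons across the inner membrane. A core of subunits inherited from bacteria carries out these reactions, those of the matrix arm being encoded in the nucleus, and a larger set of accessory subunits surrounds and stabilises the core. TFEB is a basic helix-loop-helix factor best known for its control of lysosomal and autophagy genes, which it binds at an E-box within the CLEAR element. Oxidative muscle fibers are rich in the proteins of the respiratory chain.

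Tfeb itself read 8.61, 8.55 and 8.96 in WT and 7.10, 7.23 and 7.04 in TFEB KO muscle, and fell by 1.58 on the log2 scale (SE 0.13, limma adjusted p = 0.0079). The 6 markers of skeletal muscle (Ckm, Acta1, Des, Mb, Ttn and Mylpf) had mean levels of 13.18 to 14.91, near the top of the arrays. Markers of other cell types differed between the genotypes. Of 13 macrophage markers 7 passed the test and were higher in TFEB KO muscle (Mpeg1, Lyz2, Adgre1, Itgam, Cd163, Fcgr3 and Ptprc), with array medians against the WT mean of 0.34, 0.07 and -0.38 in WT and 1.46, 0.86 and 0.89 in TFEB KO. Of 12 endothelial markers 6 passed and were lower (Pecam1, Kdr, Vwf, Flt1, Esam and Egfl7), with TFEB KO array medians of -0.72, -0.45 and -0.49. With any 1 array left out, 0 to 3 markers of each of these lists passed. The 5 measured adipocyte markers stood apart on TFEB KO array 1, at a median of 1.91 against -0.03 and 0.02 on the other TFEB KO arrays. In bulk tissue, fewer cells of a type and less RNA per cell cannot be told apart, and the part that these cells play in the values of the complex I genes was not tested. The difference between 3′ and 5′ control probe sets for the transferrin receptor was 3.84 to 4.0 in WT and 2.92 to 3.66 in TFEB KO, while for beta-actin it was -0.25 to -0.14 and -0.21 to -0.11. The part of RNA quality was not tested either.

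No complex I member passed the test on its brightest probe set, where 0.702% of all genes were called lower and 0.871% higher at an adjusted p under 0.05. The smallest adjusted p was 0.11. The members' differences ran from -0.40 for Ndufv1 to 0.32 for Ndufs4, with a median of -0.04 against -0.01 over all genes. The middle of the members spanned -0.12 to 0.02 between quartiles, and that of all genes -0.13 to 0.11. The subunits thus lay close together. They were also measured tightly, with a median SD over mice of 0.07 in WT and 0.06 in TFEB KO. The limma standard errors, which draw on the spread of all probe sets, were 0.08 to 0.19, and 0.08 was also the lowest over all genes.

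The precision of 3 mice in each group bounded what could be missed in the signal of the brightest probe sets. How closely that signal follows the amount of RNA was not tested. Dimmer probe sets gave larger differences for some members and smaller ones for others, as given below. For 29 of the 32 members the 95% interval of the difference lay inside a 1.5-fold change either way, and for 24 it lay inside 1.3-fold. The exceptions to the wider bound were Ndufv1, whose interval reached -0.64, Ndufa10, whose interval reached -0.63, and Ndufs4, whose interval reached 0.59. A single value compared by an exact permutation test of 3 against 3 mice cannot give a two-sided p below 0.10.

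More of the members lay below 0 than above it. There were 23 of 32 below 0, or 71.9%, where 53.4% of all genes were. All TFEB KO values lay under all WT values for 12 members, 37.5% of them, where 12.9% of all genes showed this, and all TFEB KO values lay above for 3 members, 9.38%, where 10.8% of all genes did. In either direction this held for 46.9% of the members and 23.8% of all genes. The 12 were Ndufa3, Ndufa8, Ndufa9, Ndufa10, Ndufab1, Ndufb9, Ndufb10, Ndufc1, Ndufs3, Ndufs5, Ndufs7 and Ndufv1, and the 3 were Ndufa1, Ndufa2 and Ndufs4. At an unadjusted p under 0.05 there were 5 members lower, 15.6% against 8.66% of all genes, and 1 higher, 3.12% against 8.49%. Together they made 18.8% of the members, close to the 17.1% of all genes. The share wholly lower also exceeded that of all genes in complexes II to V and in the complex I assembly factors, as given below. The excess over all genes was thus not confined to the complex I subunits. Because the members share mice and arrays, these shares describe the lists and are not a test of them.

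**Figure D1:**
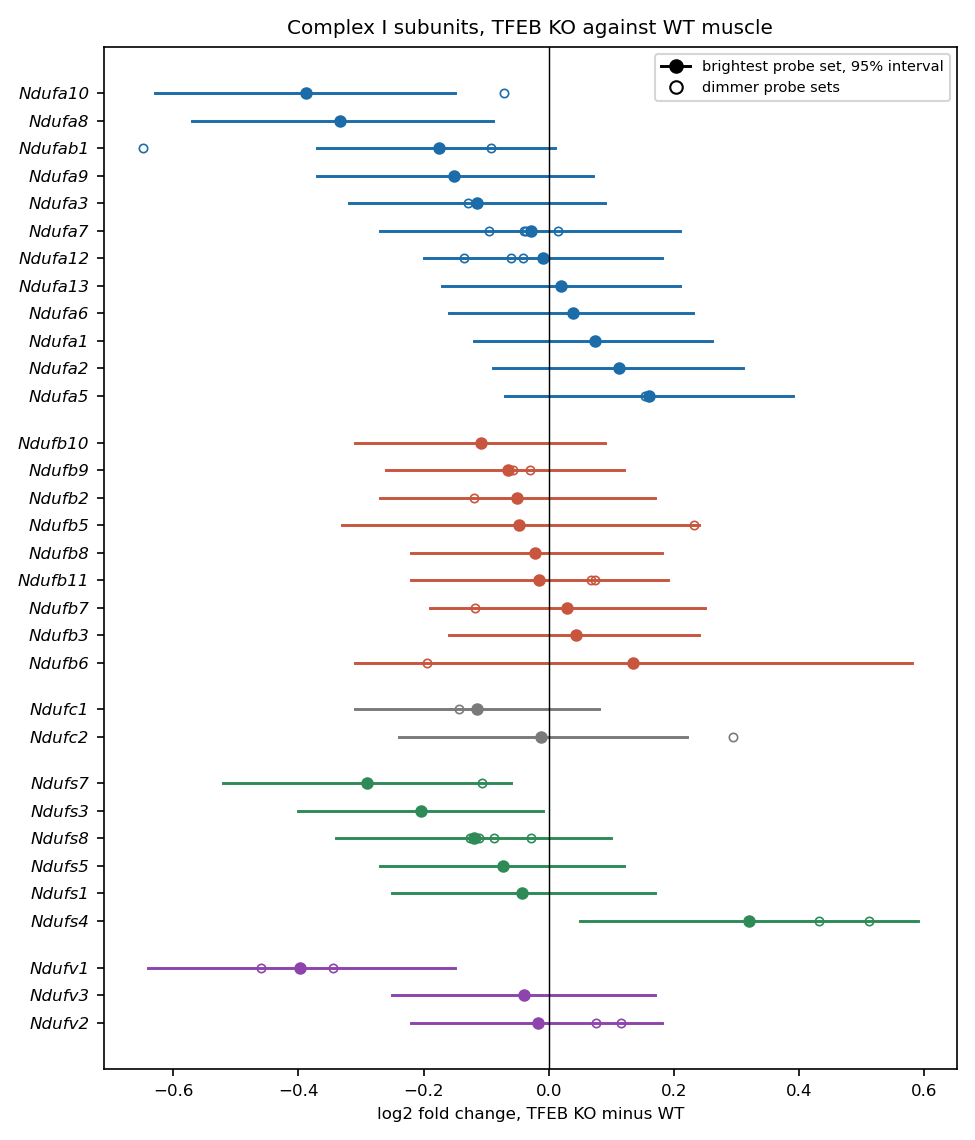
Difference of each complex I member between TFEB KO and WT muscle (log2 fold change, x axis), grouped by subfamily. Filled points are the brightest probe set with its 95% interval from limma over 3 mice in each group, and open points are dimmer probe sets; Ndufv1 at -0.40 and Ndufs4 at 0.32 are the ends of the range.

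The lowest difference of all belonged to a core subunit of the matrix arm. Ndufv1, the subunit that holds the flavin and binds NADH, read 12.45, 12.49 and 12.43 in WT and 11.87, 12.09 and 12.21 in TFEB KO muscle. Every TFEB KO mouse lay under every WT mouse, and TFEB KO 1 was the lowest. The means were 12.46 ± 0.03 and 12.06 ± 0.17 (SD, n = 3 each), a difference of -0.40 (SE 0.11, 1.32-fold lower, limma adjusted p = 0.11). Its other probe sets gave -0.46 (adjusted p = 0.0687) and -0.34 (adjusted p = 0.14), with no overlap of the groups on either. The other members of its subfamily lay near 0. Ndufv2, an iron-sulfur subunit that sits beside Ndufv1, was at -0.02, with dimmer probe sets at 0.12 and 0.08, and the small accessory subunit Ndufv3 was at -0.04.

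Among the Ndufs genes, Ndufs7, which carries the last iron-sulfur cluster before ubiquinone, read 12.64, 12.63 and 12.49 in WT and 12.22, 12.45 and 12.22 in TFEB KO muscle. The groups did not overlap, and TFEB KO 2 lay just under WT 3. The difference was -0.29 (SE 0.10, 95% interval -0.52 to -0.06, limma adjusted p = 0.20), while a second probe set, which overlapped between groups, gave -0.11 (adjusted p = 0.60). Ndufs3, a core subunit without a cluster, read 12.75, 12.74 and 12.80 in WT and 12.52, 12.58 and 12.58 in TFEB KO. The mice of a group lay close together, with an SD of 0.03 in each, and the difference was -0.21 (95% interval -0.40 to -0.01, limma adjusted p = 0.26). The iron-sulfur subunits Ndufs8 and Ndufs1 were at -0.12 and -0.04, and the accessory Ndufs5 was at -0.07. All 6 probe sets of Ndufs8 lay below 0, from -0.13 to -0.03.

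Ndufs4 went the other way. It is an accessory subunit of the matrix arm that helps to hold the NADH-binding module in place. It read 11.66, 11.86 and 11.51 in WT and 12.11, 11.99 and 11.88 in TFEB KO muscle. WT 2 came close to TFEB KO 3 without reaching it. The means were 11.67 ± 0.18 and 11.99 ± 0.11 (SD, n = 3 each), a difference of 0.32 (SE 0.12, 1.25-fold higher, limma adjusted p = 0.21). A dimmer probe set read 9.27, 9.35 and 9.39 in WT and 9.72, 9.77 and 9.82 in TFEB KO, a difference of 0.43 (SE 0.09, adjusted p = 0.0554). The spread of this probe set within each group was small beside the distance between groups. Another, whose name marks probes that can bind other transcripts, gave 0.51 (adjusted p = 0.25) and overlapped between groups.

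The E-box that TFEB binds was looked for upstream of the subunit genes. RefSeq promoter windows of GRCm38.p6, from 250 bases before to 50 bases after the start site, were held for 29 members. Ndufs1, Ndufb9 and Ndufa2 had none. Besides Ndufv1, the member with the lowest difference, only Ndufa7 had a window that held this E-box. The windows of both and of Ndufs4, the member with the highest difference, are given below as the 250 bases before the start site. They run in the direction of transcription, with capitals marking a match to CACGTG or, in Ndufa7, to the longer TCACGTGA. The Ndufv1 window lies at chr19:4012756-4013005 on the minus strand, that of Ndufa7 at chr17:33824322-33824571 on the plus strand (the first of 2 start sites), and that of Ndufs4 at chr13:114388095-114388344 on the minus strand.
Ndufv1: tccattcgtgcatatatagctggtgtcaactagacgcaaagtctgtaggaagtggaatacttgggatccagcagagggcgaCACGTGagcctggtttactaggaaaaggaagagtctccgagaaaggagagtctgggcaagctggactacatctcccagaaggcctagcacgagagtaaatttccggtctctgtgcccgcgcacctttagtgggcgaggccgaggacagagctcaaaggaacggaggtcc
Ndufa7: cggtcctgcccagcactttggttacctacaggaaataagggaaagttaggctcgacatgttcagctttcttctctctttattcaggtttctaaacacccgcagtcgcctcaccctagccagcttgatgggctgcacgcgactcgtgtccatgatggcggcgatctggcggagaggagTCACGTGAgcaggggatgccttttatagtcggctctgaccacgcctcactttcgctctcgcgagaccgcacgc
Ndufs4: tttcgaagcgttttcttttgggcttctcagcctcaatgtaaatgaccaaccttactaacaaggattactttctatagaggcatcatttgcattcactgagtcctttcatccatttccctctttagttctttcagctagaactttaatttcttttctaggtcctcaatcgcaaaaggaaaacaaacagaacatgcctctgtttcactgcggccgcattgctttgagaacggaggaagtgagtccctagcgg
Read on both strands, CACGTG was present in 2 of the 29 members, 6.9%, and in 8.09% of 27025 genes with a window. The match in Ndufv1 began 169 bases before the start site, and that in Ndufa7 began 72 bases before it. TCACGTGA, which contains CACGTG, was present in Ndufa7 alone among the members, 3.45%, against 1.12% of all genes. Ndufa7, an accessory subunit of the matrix arm, differed by only -0.03 between genotypes, so that Ndufv1 lay at the low end of the order of differences and Ndufa7 near its middle.

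Other motifs of mitochondrial gene control were searched after the values were known. CCGGAAG, a motif of the ETS factor GABP, was in 4 members (Ndufb6, Ndufb7, Ndufs3 and Ndufs8), 13.8%, against 9.93% of all genes. The palindromic motif of NRF1 was in 4 (Ndufa5, Ndufa6, Ndufa8 and Ndufs5), 13.8%, against 5.19%. AAGGTCA, bound by estrogen-related receptors, was in Ndufb2 and Ndufs5, 6.9%, against 5.38%. The members with the NRF1 motif ran from -0.33 for Ndufa8 to 0.16 for Ndufa5, on both sides of 0. A match is one of letters only.

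The Ndufa subfamily, taken with Ndufab1, had 12 measured members with a median of -0.02 and a range of -0.39 to 0.16. Ndufa10, an accessory subunit on the matrix face of the membrane arm, read 12.46, 12.50 and 12.35 in WT and 11.88, 12.16 and 12.10 in TFEB KO muscle. All TFEB KO mice were lower, TFEB KO 1 by the most. The means were 12.44 ± 0.08 and 12.05 ± 0.15 (SD, n = 3 each), a difference of -0.39 (1.31-fold lower, limma adjusted p = 0.11). A dimmer probe set at a mean of 7.68 gave -0.07 (adjusted p = 0.84) and overlapped between groups.

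Ndufa8, a subunit of the intermembrane space face, read 12.40, 12.47 and 12.19 in WT and 11.99, 12.12 and 11.96 in TFEB KO muscle. WT 3 was the lowest WT mouse and lay just above TFEB KO 2. The difference was -0.33 (95% interval -0.57 to -0.09, 1.26-fold lower, limma adjusted p = 0.16). Ndufa9, an accessory subunit near the ubiquinone site, read 12.60, 12.69 and 12.59 in WT and 12.34, 12.56 and 12.52 in TFEB KO, a difference of -0.15 (95% interval -0.37 to 0.07, adjusted p = 0.47). The groups did not overlap, and TFEB KO 1 lay the farthest from the WT mice.

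Ndufab1, the mitochondrial acyl carrier protein that is also a subunit of complex I, was the only member with a probe set past the test. On its brightest probe set it read 12.80, 12.80 and 12.73 in WT and 12.59, 12.61 and 12.60 in TFEB KO muscle, a difference of -0.18 (95% interval -0.37 to 0.01, limma adjusted p = 0.33). On its dimmest it read 6.40, 6.06 and 6.26 in WT and 5.43, 5.59 and 5.75 in TFEB KO, and that signal fell by 0.65 on the log2 scale (SE 0.12, 1.57-fold lower, adjusted p = 0.0475). Another probe set, at a mean of 9.65, gave -0.09 (adjusted p = 0.68). The groups did not overlap on the brightest or the dimmest, but the sizes of the difference were unlike. The call on the dimmest was lost when any 1 array was left out (adjusted p of 0.074 to 0.18), and it was the only call among the 66 probe sets, where 1.6% of all probe sets were called, 0.844% lower and 0.751% higher.

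The remaining Ndufa genes lay on either side of 0. Ndufa5, an accessory subunit of the matrix arm, read 11.81, 11.98 and 11.86 in WT and 12.10, 11.91 and 12.12 in TFEB KO muscle. TFEB KO 2 fell among the WT mice, and the difference was 0.16 (95% interval -0.07 to 0.39, limma adjusted p = 0.47), with a second probe set at 0.15. Ndufa2, a small thioredoxin-like subunit of the matrix arm, read 12.08, 12.14 and 12.22 in WT and 12.23, 12.27 and 12.27 in TFEB KO, a difference of 0.11 (95% interval -0.09 to 0.31, adjusted p = 0.56). The groups came close without overlap. Of the other accessory subunits, Ndufa1 was at 0.07, Ndufa6 at 0.04, Ndufa13, also known as GRIM-19, at 0.02, Ndufa12 at -0.01 and Ndufa3 at -0.11.

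The Ndufb genes, which encode accessory subunits of the membrane arm, lay close to 0. The 9 measured members had a median of -0.02 and a range of -0.11 to 0.13, and none was under an unadjusted p of 0.05, where 17.1% of all genes were. The lowest was Ndufb10 at -0.11, followed by Ndufb9 at -0.07, Ndufb2 and Ndufb5 at -0.05, Ndufb8 at -0.02 and Ndufb11 at -0.01. Ndufb7 was at 0.03 and Ndufb3 at 0.04. Ndufb6, the highest, read 11.80, 11.78 and 12.43 in WT and 12.21, 11.87 and 12.33 in TFEB KO muscle, a difference of 0.13 (95% interval -0.31 to 0.58, limma adjusted p = 0.78). WT 3 was high and TFEB KO 2 low, so the groups overlapped. The difference was 0.35 without WT 3, 0.27 without TFEB KO 2, and 0.02 to 0.10 without any other single array. A dimmer probe set of Ndufb6 read 12.01, 11.97 and 11.89 in WT and 11.70, 11.77 and 11.81 in TFEB KO and gave -0.19 (adjusted p = 0.31), which is the opposite sign.

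The Ndufc genes encode small membrane arm subunits. Ndufc1 was at -0.12, with a second probe set at -0.14 and no overlap of the groups on either. Ndufc2 read 12.29, 12.33 and 12.23 in WT and 12.39, 12.30 and 12.12 in TFEB KO muscle, a difference of -0.01 (95% interval -0.24 to 0.22, limma adjusted p = 0.97). Its dimmer probe set read 11.80, 11.91 and 12.44 in WT and 12.47, 12.07 and 12.49 in TFEB KO, a difference of 0.29 (adjusted p = 0.47). As on the brightest probe set of Ndufb6, WT 3 was far above the other WT mice and TFEB KO 2 was the lowest of its group.

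**Figure D2:**
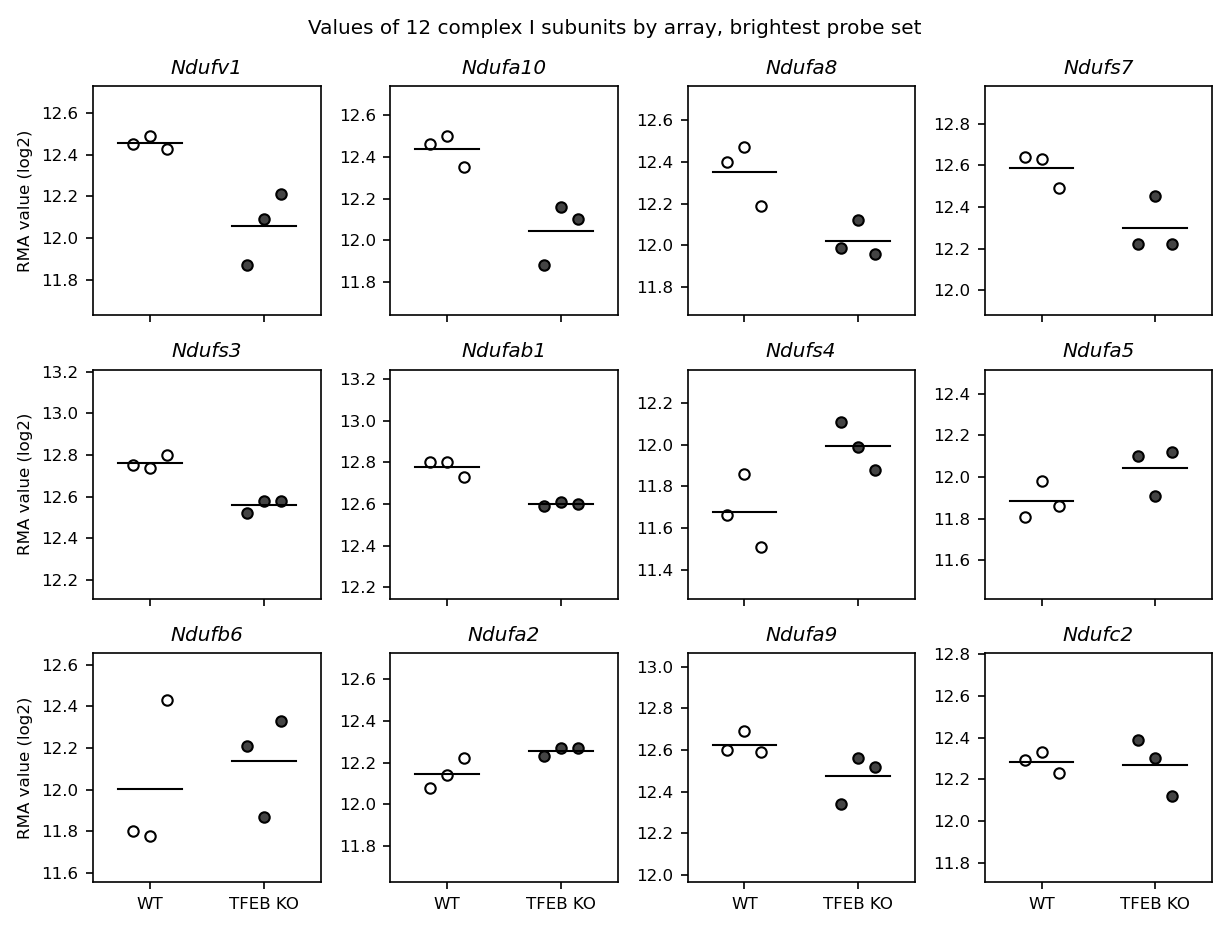
RMA values (log2, y axis) of 12 complex I subunits on each array, by genotype (x axis, 3 WT as open points and 3 TFEB KO as filled points, from replicate 1 at the left to replicate 3 at the right), with bars at the group means. Each panel spans the same number of log2 units, and the axes do not start at 0. Ndufv1 and Ndufa10 show no overlap and a difference near -0.4, Ndufs4 the opposite direction, and Ndufb6 the high value of WT 3.

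Probe sets of the same gene did not always give the same sign. Of the 19 members with more than 1 probe set, 10 had all of them below 0, 2 had all above 0 (Ndufs4 and Ndufa5), and 7 had probe sets on both sides. For 3 members (Ndufa3, Ndufa12 and Ndufs8) the name of the brightest probe set ends in x_at, which marks probes that can bind other transcripts. For 3 further members (Ndufa2, Ndufa13 and Ndufab1) it ends in s_at, which marks probes shared by several transcripts. The name of the dimmer Ndufc2 probe set also ends in s_at. The brightest probe sets had means between 11.74 and 13.37 on arrays whose probe sets ran from 2.54 to 14.93. The dimmest member probe set had a mean of 4.79.

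**Figure D3:**
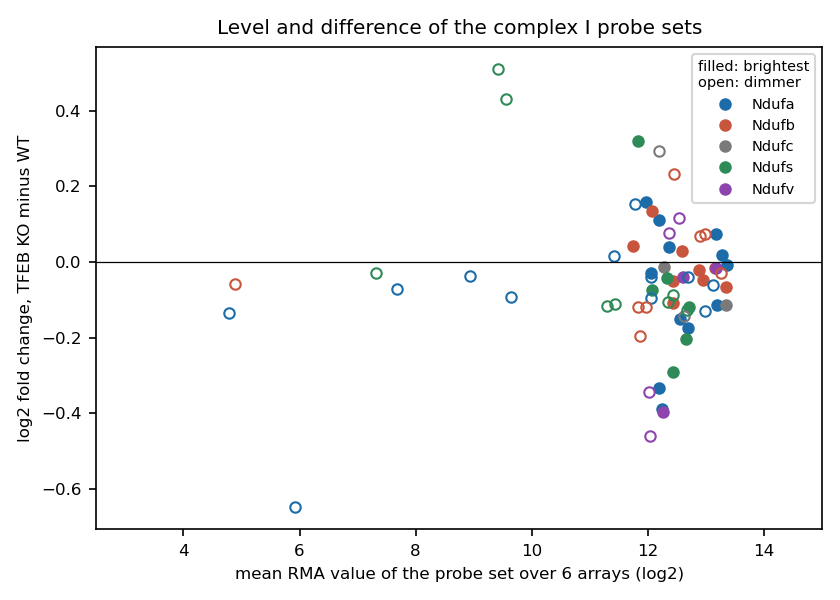
Difference of each of the 66 complex I probe sets (log2 fold change, TFEB KO minus WT, y axis) against its mean RMA value over the 6 arrays (log2, x axis), coloured by subfamily. Filled points are the brightest probe set of a gene, at means of 11.74 to 13.37, and open points the dimmer ones; the dimmest Ndufab1 probe set is the lowest point, at -0.65.

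Sorted by role, the core subunits were lower than the accessory ones as a description. All 6 measured core subunits (Ndufs1, Ndufs3, Ndufs7, Ndufs8, Ndufv1 and Ndufv2) were below 0, with a median of -0.16. Of the 26 accessory subunits 17 were below 0, with a median of -0.03. All TFEB KO values lay under all WT values for 3 of the 6 core subunits and for 9 of the 26 accessory subunits, 34.6%, against 12.9% of all genes. They lay above for 0 core and 3 accessory subunits, 11.5% of the latter, against 10.8% of all genes. In either direction the groups did not overlap for 3 of 6 core and 12 of 26 accessory subunits. The accessory share was 46.2%, against 23.8% of all genes. The matrix arm, with 14 members, had a median of -0.03, and the membrane arm, with 17, had -0.05. By subfamily the median was -0.10 for Ndufs, -0.06 for Ndufc, -0.04 for Ndufv and -0.02 for both Ndufa and Ndufb. No test of the difference between these groups was made.

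The mice did not contribute equally. The median of the core subunits against the WT mean was 0.04, 0.03 and -0.07 on the WT arrays and -0.23, -0.08 and -0.15 on the TFEB KO arrays. Over all 32 members these medians were 0.00, 0.03 and -0.04 in WT and -0.06, -0.02 and -0.07 in TFEB KO. Over all genes they were 0.01, 0.01 and -0.01 in WT and -0.01, 0.02 and -0.05 in TFEB KO. TFEB KO 1 gave the lowest of the 6 values for 14 members, and WT 3 for 7. WT 3 was the lowest of the WT mice for 20 members. The 8 slow fiber markers were low in WT 3 and in every TFEB KO mouse. Their array medians were 0.30, 0.50 and -0.84 in WT and -0.90, -0.54 and -0.63 in TFEB KO. Of them 0 passed the test, and 5, or 62.5%, were lower at an unadjusted p under 0.05, against 8.66% of all genes. The 10 fast fiber markers had a median difference of 0.02. Without WT 3, 3 of the slow fiber markers passed. The part of fiber type in the members' values was not tested.

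The factors that build complex I without remaining in it had a lower median than its subunits, a difference that was not tested. Of 15 measured assembly factors 12 were below 0, with a median of -0.18, and none passed the test. All TFEB KO values lay under all WT values for 7 of the 15, 46.7%, against 12.9% of all genes. They lay above for 1, 6.67%, against 10.8% of all genes. Ecsit read 10.45, 10.41 and 10.38 in WT and 9.85, 10.04 and 10.11 in TFEB KO muscle, a difference of -0.41 (SE 0.10, limma adjusted p = 0.083). The groups were well apart, and TFEB KO 1 was again the lowest. Ndufaf1, which works with Ecsit in an assembly complex of the membrane arm, read 10.17, 10.18 and 10.01 in WT and 9.80, 9.78 and 9.81 in TFEB KO, a difference of -0.32 (SE 0.09, adjusted p = 0.12).

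The other complexes of the respiratory chain had medians near that of complex I, apart from complex II. The 4 subunits of complex II, succinate dehydrogenase, were all below 0, with a median of -0.19, and Sdhb and Sdhd were at -0.30 (limma adjusted p = 0.17) and -0.24 (adjusted p = 0.24). Complex III had a median of -0.02 over 9 genes, with Uqcrc1 at -0.39 (adjusted p = 0.10) and Cyc1 at -0.26 (adjusted p = 0.17). Complex IV had -0.04 over 11 genes, with Cox8b at -0.33 (adjusted p = 0.14). Complex V had -0.01 over 15 genes, with Atp5a1, the catalytic-core alpha subunit, at -0.31 (adjusted p = 0.15). None of these passed the test. All TFEB KO values lay under all WT values for 3 of the 4 genes of complex II and 3 of the 9 of complex III. The same held for 4 of the 11 genes of complex IV and 4 of the 15 of complex V. All TFEB KO values lay above for 0 genes of complexes II and III, 1 of complex IV and 2 of complex V.

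Another enzyme that feeds electrons to ubiquinone did pass. Gpd2, the mitochondrial glycerol-3-phosphate dehydrogenase, read 10.83, 11.01 and 11.12 in WT and 10.33, 10.22 and 10.18 in TFEB KO muscle, and fell by 0.74 on the log2 scale (SE 0.10, limma adjusted p = 0.022). It kept the call when TFEB KO 1 was left out and lost it when any other single array was. Dhodh and Etfdh, which also reduce ubiquinone, were at -0.24 (adjusted p = 0.29) and -0.18 (adjusted p = 0.50). Of 9 regulators of mitochondrial genes none passed the test and 7 were below 0, with a median of -0.19. Ppara, a nuclear receptor of fatty acid oxidation, was at -0.65 (adjusted p = 0.078) and Ppargc1b, a coactivator of respiratory genes, was at -0.46 (adjusted p = 0.11).

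**Figure D4:**
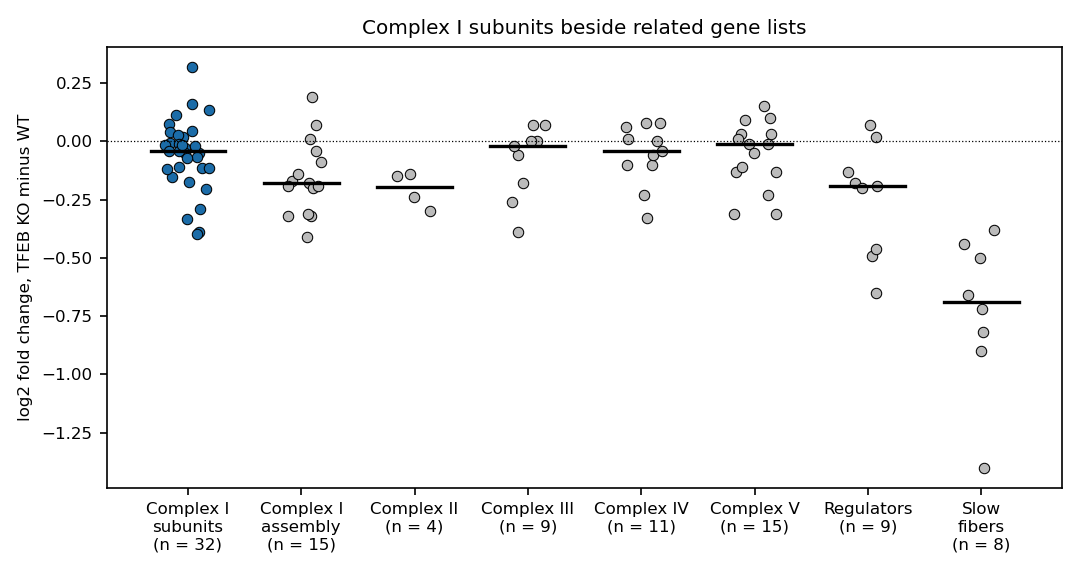
Differences (log2 fold change, TFEB KO minus WT, y axis) of the 32 complex I subunits beside 7 related lists (x axis, with the number of genes), 1 point per gene and a bar at the median. The complex I median is -0.04, that of the assembly factors -0.18 and that of the slow fiber markers -0.69.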

How the data were processed

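Affymetrix arrays of 3 WT and 3 TFEB KO mice were analysed, 1 array per mouse. The authors processed the scans with affy and RMA (per the labels, versions not given in the sources used here) and deposited log2 values per probe set. RMA corrects background, normalizes arrays to one distribution and summarises probes, so values are relative to the array. The 64 control probe sets were left out. Of the 22626 others, 20380 carried 1 gene symbol, 691 several and 1555 none. limma 3.58.1 in R 4.3.3 (lmFit and eBayes, two-sided) was fitted over all probe sets, with Benjamini-Hochberg adjustment and a threshold of 0.05, and was tested on simulated data first. The number of arrays limits the precision. Alternatives covered normalization, dim probe sets, moderation, weights, a replicate block, the methods' t-test, a 1.5-fold minimum, control probe sets kept, gene means and each array left out. The methods' t-test is the Student's t-test that the paper names for its data in general, run here with Benjamini-Hochberg adjustment. The paper's main text does not name the test used for the arrays, and it reports genes past an FDR of 0.05 in the knockout.

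All members have a value in the text. Given with every array are Ndufv1, Ndufa10, Ndufa9, members past the test on any probe set, those with the smallest p or the largest differences, and those whose probe sets disagree in sign by over 0.3. Ndufs3, Ecsit, Ndufaf1 and Gpd2 were given so too. Other genes named are list members past the test and at most 2 further per list with the smallest p, and Etfdh, which completes a list of 3. Members and lists were chosen with earlier results of these data known.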

Additional observations from a re-analysis of the deposited data

How the results depend on the processing

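No member passed the test on its brightest probe set under any alternative run. The 1.5-fold minimum could call no member, since no brightest probe set differed by 0.58, the log2 of 1.5. The methods' t-test called no gene at all, so neither run bears on the members. Requiring 1.5-fold left 0 of the members lower and 0 higher at an unadjusted p under 0.05. Leaving out each array in turn gave 2 to 4 lower and 0 to 1 higher (11.6% to 17.1% of all genes in either direction), 12 to 17 members wholly lower in TFEB KO (15.4% to 21.0% of all genes) and 3 to 6 wholly higher (14.1% to 17.6%), and medians of -0.08 to -0.02 for all members, -0.06 to 0.01 for Ndufa, -0.04 to 0.01 for Ndufb, -0.08 to -0.02 for Ndufv and -0.18 to -0.13 for assembly factors. It left 0 to 3 slow fiber, 0 to 3 macrophage and 0 to 3 endothelial markers past the test, 0 to 1 regulator and 0 to 1 other NADH or ubiquinone enzyme. Without both WT 3 and TFEB KO 1, the arrays with the lowest array weight in each group (chosen after seeing the data), 0 members were higher at the unadjusted threshold, 17 were wholly lower (27.8% of all genes) and 6 wholly higher (24.0%), the medians were -0.10 for Ndufc, -0.13 for assembly factors and 0.69 for macrophage markers, and 6 slow fiber and 3 endothelial markers passed. A second quantile normalization gave medians of -0.06 for Ndufb and -0.02 for complex IV. Gene means gave 0.01 for Ndufc and -0.01 for complex IV. Array weights gave 1 slow fiber marker past the test and -0.14 for assembly factors. Shifting arrays to one 75th percentile left 4 macrophage markers, trended and robust moderation called 1 gene of complex III, and the methods' t-test left 0 macrophage, 0 endothelial and 0 ubiquinone enzyme genes after Benjamini-Hochberg adjustment. Small differences turned sign. Without WT 3 and TFEB KO 1, Ndufa6 was -0.01, Ndufa12 0.01, Ndufb2 0.03, Ndufb3 -0.01 and Ndufb8 0.01. With the second normalization Ndufa12 was 0.01. With gene means Ndufb5 was 0.09, Ndufb6 -0.03, Ndufb7 -0.04, Ndufb11 0.04, Ndufc2 0.14 and Ndufv2 0.06. Leaving out 1 array spanned -0.11 to 0.01 for Ndufa7, -0.03 to 0.01 for Ndufa12, -0.10 to 0.02 for Ndufb2, -0.16 to 0.02 for Ndufb5, -0.01 to 0.10 for Ndufb7, -0.04 to 0.02 for Ndufb8, -0.07 to 0.01 for Ndufb11, -0.07 to 0.06 for Ndufc2 and -0.04 to 0.03 for Ndufv2. The dimmest Ndufab1 probe set also lost its call under the second normalization (adjusted p = 0.054), the replicate block (0.067), the methods' t-test (0.21) and without WT 3 and TFEB KO 1 (0.12). Over all genes the calls were 87 lower and 108 higher. They ranged from 2 to 87 lower and 13 to 139 higher with 1 array left out, were 139 and 124 with gene means, 132 and 153 with array weights, and 0 and 0 by the methods' t-test, where 14.9% were under an unadjusted p of 0.05. The causes were not tested. With the replicate number as a block, 0 members lower and 0 higher passed, and 56 genes were lower and 112 higher. Deviations of same-numbered mice correlated at 0.088, 0.048 and 0.265, and WT 1 correlated best with TFEB KO 2 (0.172), so the numbers were not taken to pair the mice.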
